A study of Mus musculus with 4 samples.

Results

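The Hedgehog pathway components *Shh*, *Ptch1*, *Hhip*, *Boc*, *Gas1*, *Smo*, *Gli1*, *Gli2* and *Gli3* were followed across the cells of the embryonic mouse penis. These 9 genes were chosen by name, as the ligand, receptors, transducer and transcription factors of 1 pathway, with earlier results of these data known. They are 9 of the 32285 genes counted, and each symbol matched 1 gene. A further 33 pathway genes are described by counts. Single-cell 3' mRNA libraries were made from E16.5 male external genitalia, 2 DTA- and 2 DTA+. The DTA- penises carried the floxed diphtheria toxin allele at the Rosa locus without Cre, and the DTA+ penises carried the same allele with the *Nr5a1-Cre* transgene. *Nr5a1-Cre* is active in cells that enter the penis from outside it, and also in the testes and adrenals, so the DTA+ embryos had lost cells of those organs as well. By the study's methods, mice of the ablation cross could also carry a Cre-dependent *tdTomato* reporter. Its transcripts were found in both DTA+ libraries and in neither DTA- library, with counts given below. The study describes leaky *tdTomato* transcripts, at a low background, in most cells of its data. No such background was seen in the DTA- libraries. Whether the DTA- embryos carried the reporter was not tested, so the genotypes may differ in it as well.

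Hedgehog ligands are secreted, lipid-modified proteins. Without ligand, the receptor PTCH1 holds the transducer SMO inactive. When ligand binds, with the help of the co-receptors BOC, GAS1 and CDON, SMO is released and the GLI proteins switch on target genes. GLI1 acts mainly as an activator and GLI3 mainly as a repressor. *Ptch1*, *Gli1* and *Hhip* are themselves targets, and PTCH1 and HHIP bind ligand, so that both limit the signal. In the developing genitalia, SHH is made by the urethral epithelium and read by the mesenchyme around it, and placodes of skin appendages are another source.

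The libraries held between 11343 and 12580 cells and between 50779551 and 73577028 UMIs, where a UMI (unique molecular identifier) marks 1 captured mRNA molecule. Any pair of libraries shared between 31 and 48 cell barcodes. After limits on depth and on mitochondrial and haemoglobin counts, 31132 of 47040 cells remained, with a median of 3551 to 4700 UMIs per cell in each library. *tdTomato* had 0 UMIs in both DTA- libraries and 3579 and 3140 UMIs in the DTA+ libraries. Cells were clustered on 1992 variable genes, with all listed pathway genes left out, into 26 clusters. A cluster was named "-like" from marker lists, and 18 clusters were mesenchymal. Cluster 14 of the kept cells, led by *Iyd*, stood apart, with 1 and 6 cells in the DTA- and 549 and 303 in the DTA+ libraries. Pairs of values below are given in the order DTA- replicates 1 and 2, then DTA+ replicates 1 and 2.

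Promoter sequences are shown for *Hhip*, the member whose level differed between the genotypes in 2 cell populations, and for *Ptch1*, the target with the highest level around the urethra. RefSeq promoters (GRCm38.p6, 250 bases before to 50 bases after a transcription start) were matched for 6 of the 9 members. The printed window of *Hhip* is chr8:80057959-80058258 and that of *Ptch1* is chr13:63565686-63565985, both on the minus strand. The *Ptch1* window surrounds 1 RefSeq start that lies inside the annotated gene. Capitals mark CCACCC, the core of the GLI binding motif GACCACCCA, in lower-case sequence written 5′ to 3′.
Hhip: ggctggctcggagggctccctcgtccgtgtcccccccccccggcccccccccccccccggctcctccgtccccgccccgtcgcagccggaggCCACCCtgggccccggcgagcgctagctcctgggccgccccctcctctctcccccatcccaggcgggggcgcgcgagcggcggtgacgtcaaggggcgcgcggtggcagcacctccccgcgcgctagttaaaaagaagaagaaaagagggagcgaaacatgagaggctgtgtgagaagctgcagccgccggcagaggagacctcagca
Ptch1: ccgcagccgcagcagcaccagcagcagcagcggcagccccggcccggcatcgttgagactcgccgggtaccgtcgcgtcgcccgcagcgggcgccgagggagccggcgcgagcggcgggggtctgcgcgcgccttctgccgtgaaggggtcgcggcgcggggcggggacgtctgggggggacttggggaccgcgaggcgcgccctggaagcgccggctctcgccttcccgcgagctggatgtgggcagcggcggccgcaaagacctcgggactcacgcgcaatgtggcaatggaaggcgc
*Hhip* has 1 core, with its first base 158 bases before the start, and *Ptch1* has none in this window. On either strand, the core stood in 4 of the 6 member promoters (*Hhip*, *Smo*, *Gli2* and *Gli3*) and in 31.5% of all 32851 promoters. GACCACCCA stood in none of the 6 and in 0.253% of all. The core is part of the longer motif, so the counts overlap. A match is a run of letters and not a measured binding site.

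The ligand *Shh* was rare and almost limited to epithelial cells. All 4 libraries together held 188 *Shh* UMIs in 41 of 47040 cells, with 33 and 45 UMIs in DTA- and 86 and 24 in DTA+. They came from 16 and 5 cells in DTA- and from 11 and 9 cells in DTA+, so neither the UMIs nor the cells separated the genotypes. Of the 41 cells, 24 had at least 7500 UMIs in all and lay above the upper limit used in the study; these 24 cells held 161 of the 188 *Shh* UMIs. The related ligands were also scarce, with 16 UMIs for *Ihh* and 119 for *Dhh* over all libraries.

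With no upper limit on depth, 741 cells were epithelium-like (231, 135, 236 and 139 by library), and 34 of them held 181 of the *Shh* UMIs. The other 7 cells with *Shh* had 1 UMI each. The share of epithelium-like cells with a *Shh* UMI was 4.59% (95% Wilson interval 3.30 to 6.34%, median depth 6061 UMIs). None of 520 macrophage-like cells had one, which allows a share of up to 0.577% at a median depth of 5748 UMIs. None of 926 endothelium-like cells had one either, which allows up to 0.324%. Below 7500 UMIs, *Shh* was found in 12 of 448 epithelium-like cells (2.68%, 1.54 to 4.62%), and after thinning every cell to 1000 UMIs in 2 of 448 (0.446%). These intervals and limits cover counting error only.

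The 34 *Shh* cells were of more than 1 kind. *Foxa1*, a forkhead factor of the urethral epithelium, was detected in 35.3% of them and in 1.84% of the other 707 epithelium-like cells. *Krt8*, a keratin of simple epithelia, was found in 55.9% and 5.09%, and *Krt18*, its partner, in 61.8% and 12.6%. *Edar*, a receptor of skin appendage placodes, was found in 35.3% and 4.53%. *Krt5*, a basal keratin, was detected in 100% and 83.7%. The *Shh* cells were deep, with a median of 9296.5 UMIs, and depth alone raises a share of cells with a gene.

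These markers split the epithelium-like cells into 3 kinds, with a placode list (*Edar*, *Lhx2*, *Dkk4* and *Wnt10b*) chosen after the values were seen. Cells with at least 3 UMIs of that list numbered 50, and 11 of them held 116 *Shh* UMIs. Cells with *Foxa1* or *Krt8* and fewer UMIs of the list numbered 60, and 17 of them held 53 *Shh* UMIs. The remaining 631 epithelium-like cells had 12 *Shh* UMIs in 6 cells. Of the 34 *Shh* cells, 4 had both profiles and were counted with the first kind. They held 57, 30, 5 and 2 *Shh* UMIs, with 1, 10, 1 and 1 UMIs of *Krt8*. Whether cells of such depth held more than 1 cell was not tested.

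**Figure D1:**
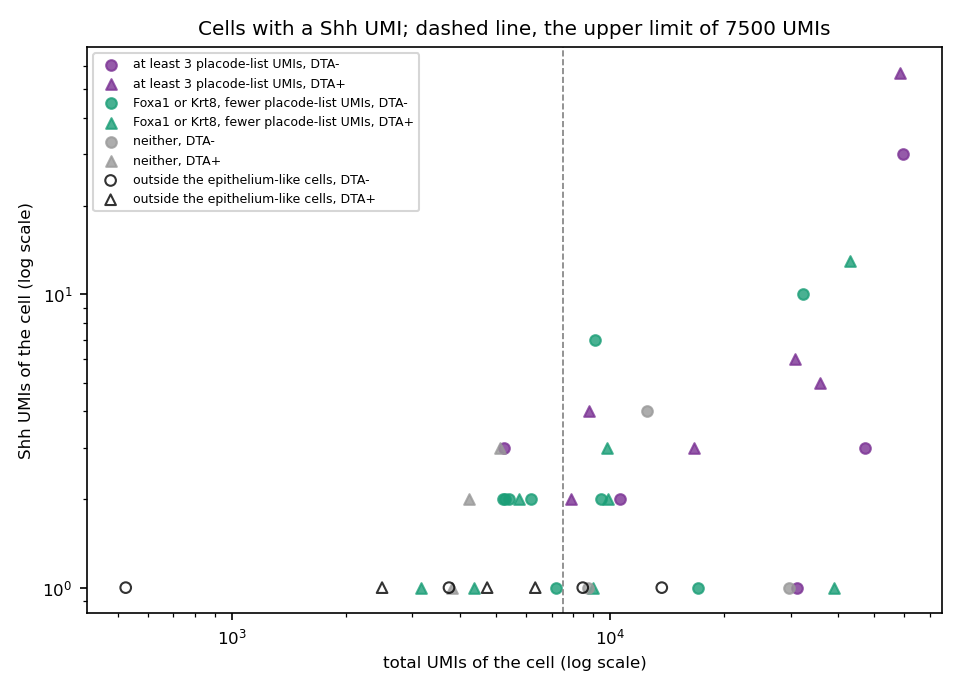
Each point is 1 of the 41 cells with a *Shh* UMI, with its total UMIs on the horizontal and its *Shh* UMIs on the vertical log axis; colours give the marker profile and shapes the genotype. The cell with the most, 57 *Shh* UMIs, and the next, with 30, both had placode-list UMIs, among 58554 and 59520 UMIs in all. They also had 1 and 10 UMIs of *Krt8*. Left of the dashed limit lie 17 cells.

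The single cell with the most ligand came from DTA+ replicate 1, with 57 *Shh* UMIs among 58554 UMIs, and it also had 64 UMIs of *Ptch1*. The next came from DTA- replicate 2, with 30 *Shh* UMIs among 59520 UMIs. The third, from DTA+ replicate 2, had 13 *Shh* UMIs among 43201, with 10 UMIs of *Foxa1* and 35 of *Krt8*. These 3 cells held 57 of 86, 30 of 45 and 13 of 24 *Shh* UMIs of their libraries.

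Receptor genes were also detected in the epithelium. Of the 34 *Shh* cells, 24 had a *Ptch1* UMI. Over all 741 epithelium-like cells, 212 had one, at a median depth of 6061 UMIs against 9296.5 in the *Shh* cells. In the 50 cells with the placode profile, pooled over libraries, *Ptch1* was at 204 CPM (counts scaled to an equal library total). In the 60 cells with *Foxa1* or *Krt8* it was at 87.4 CPM, and in the 631 others at 70.0 CPM. *Gli1* was at 26.04, 5.53 and 6.99 CPM in the same 3 kinds of cell, and *Smo* at 100.1, 98.4 and 81.0 CPM. The kinds differed in depth, with medians of 35176.5, 6203 and 5540 UMIs. The cells with 57 and 30 *Shh* UMIs held 64 and 45 of the 454 *Ptch1* UMIs of the placode profile. The part of depth, or of barcodes with more than 1 cell, in these levels was not tested. By library, the *Ptch1* level in the placode-profile cells was 134 and 286 CPM in DTA- and 225 and 251 CPM in DTA+, so the genotypes overlapped there. *Hhip* stayed between 1.35 and 3.32 CPM in the 3 kinds of cell.

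The receptor and target genes were highest in mesenchyme. Levels per cluster are means over samples of both genotypes with at least 20 cells in the cluster, with the SD over those samples. *Ptch1* was highest in the periurethra-like cluster (229 ± 67.6 CPM, SD, n = 4), named from markers of the mesenchyme around the urethra. An unnamed mesenchymal cluster led by *Irx1* and *Col7a1* came next (197 ± 50.3 CPM, n = 4). These neighbours differed by less than either SD. A proliferating cluster led by *Hist1h1b* followed (125 ± 33.8 CPM, n = 4), below the second by more than either SD. The epithelium-like cluster ranked 5 (63.7 ± 29.4 CPM, n = 4), and the macrophage-like cluster last (7.54 ± 5.67 CPM, n = 4).

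*Hhip* had a narrower pattern. It was highest in the periurethra-like cluster (78.9 ± 22.3 CPM, n = 4) and in a distal glans-like cluster led by *Msx2* and *Inhba* (64.6 ± 27.5 CPM, n = 4), which differed by less than either SD. A proliferating cluster led by *Top2a* followed (34.4 ± 12.9 CPM), then a distal glans-like cluster led by *Tac1* (31.0 ± 10.9 CPM). In the *Irx1*/*Col7a1* cluster, where *Ptch1* was second, *Hhip* was at 11.3 CPM. Both ligand-binding targets thus had the same highest cluster but not the same next one.

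*Gli1*, the activator and target, was highest in the *Irx1*/*Col7a1* cluster (34.9 ± 7.18 CPM, n = 4). A general prepuce-like cluster (27.8 ± 10.0 CPM, n = 3), a proliferating cluster (24.2 ± 3.30 CPM) and the periurethra-like cluster (23.9 ± 7.23 CPM) followed, with neighbours that differed by less than the larger SD. *Gli1* had 0 UMIs in the macrophage-like cluster. *Gli2* was highest in the general prepuce-like (28.8 ± 3.04 CPM, n = 3) and *Irx1*/*Col7a1* (26.8 ± 4.78 CPM) clusters. *Gli3* led in an unnamed cluster with *Rprm* and *Dsc3* as first genes (114 ± 18.7 CPM, n = 4), where *Gli1* was at 0.414 ± 0.505 CPM.

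The co-receptors and the transducer were spread more evenly. *Boc* was highest in both corpus cavernosum-like clusters (101 ± 29.9 and 89.6 ± 27.1 CPM, n = 4 each), named from Sox9 and cartilage genes. *Gas1*, a membrane-anchored co-receptor, was highest in an unnamed cluster led by *Kera* (1012 ± 143 CPM, n = 4) and in the *Irx1*/*Col7a1* cluster (984 ± 250 CPM). *Smo* was highest in the corpus cavernosum-like clusters (168 ± 24.0 and 155 ± 30.3 CPM). In the periurethra-like cluster, *Smo* (135 ± 13.7 CPM) ranked 4 and *Gas1* was at 493 CPM.

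**Figure D2:**
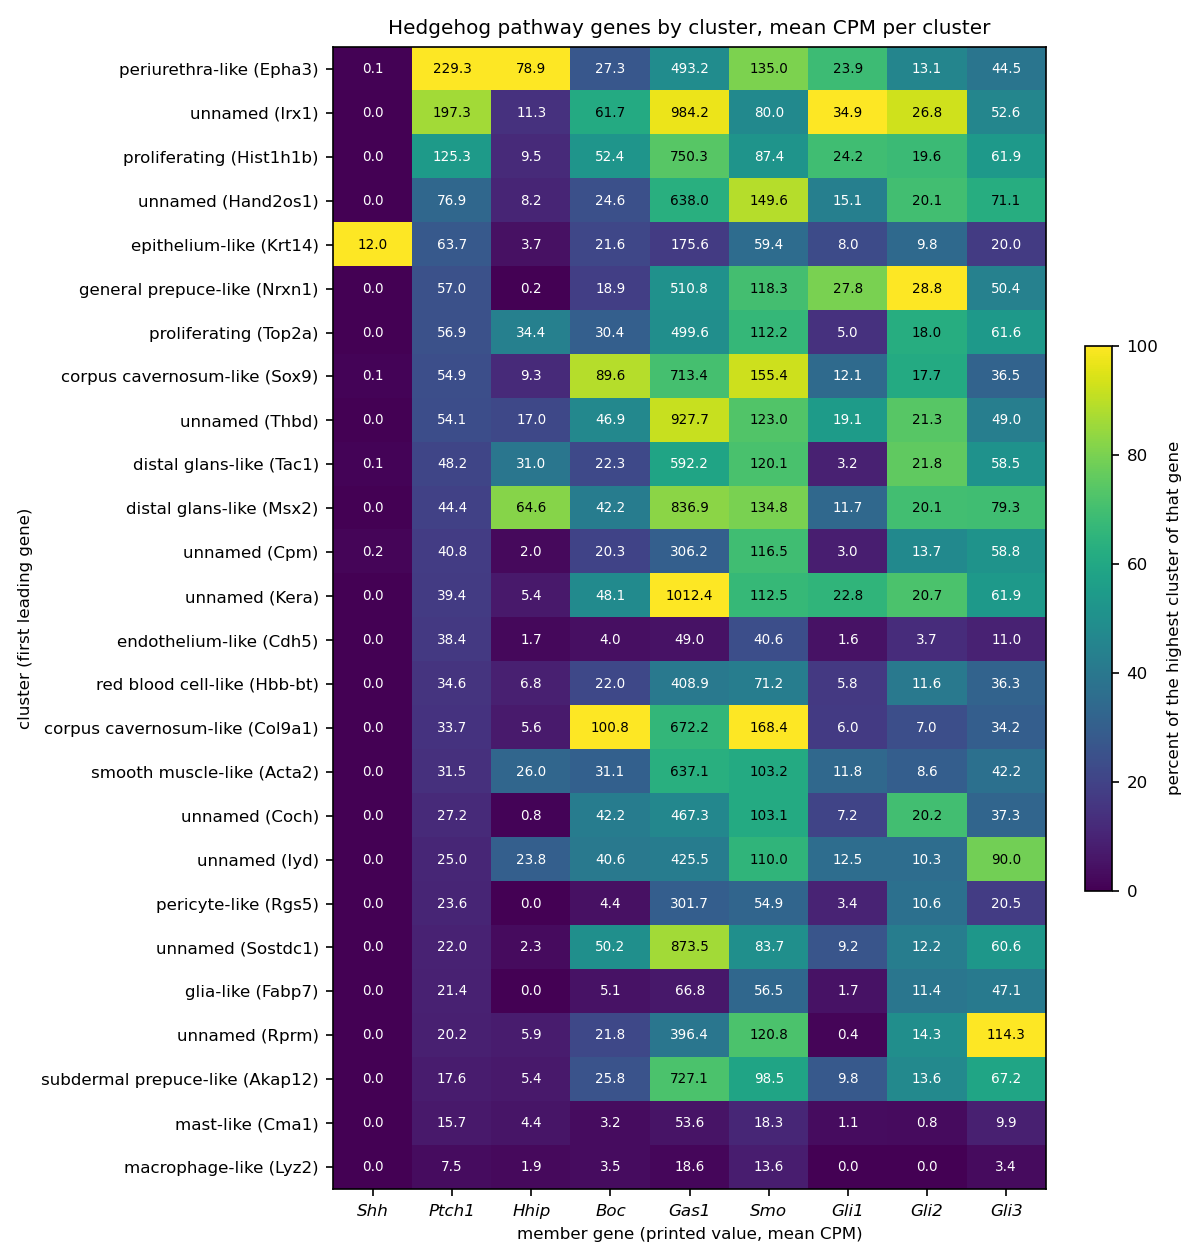
Rows are the 26 clusters in the order of their *Ptch1* level and columns the 9 members; the printed value is the mean CPM over samples and the colour its percent of that gene's highest cluster. *Shh* has its highest value in the epithelium-like row, at only 12.0 ± 12.2 CPM (SD, n = 4) from 22 UMIs, and the next row is at 0.152 CPM. *Ptch1* and *Hhip* share the periurethra-like row as their highest, and *Gli3* has its highest value, 114 CPM, in the *Rprm* row.

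Over the 26 clusters, the 5 genes whose level of log2(CPM + 10) was most like that of *Gli1* were *Kdelr3*, *Gk5*, *Ephb3*, *Smoc1* and *Ror2*, with Pearson r of 0.79 to 0.82 among 10532 genes. *Ptch1* ranked 28 in that order (r = 0.73), *Gas1* 75, *Gli2* 116 and *Hhip* 2460 (r = 0.33). For *Shh* the first were *Scgb1a1*, *Tmem45b*, *Dynap*, *Msln* and *Sprr2i*, all with r of 1.00, since nearly all of their counts fell in the epithelium-like cluster. The clusters share libraries and depth, and these values are descriptions.

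The genotypes were then compared within cell populations, to ask where the pathway differed once *Nr5a1*-lineage cells were ablated. Counts were summed per sample and population, scaled to CPM with edgeR's TMM correction, and tested with its quasi-likelihood test. A log2 fold is DTA+ minus DTA-, so that a value above 0 means higher in DTA+. A gene was called where the Benjamini-Hochberg adjusted p over all genes of the population was under 0.05. Nothing in the labels says how the 2 samples of a genotype were paired or raised, so these p-values measure the spread between these samples. With 2 against 2 samples, groups without overlap have an exact two-sided permutation p of only 0.333. A lack of overlap is therefore given as a description.

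In all cells summed, none of the 8 members tested was called, against 0.488% of the 15977 genes. *Shh* was too low to test. *Ptch1* was at 56.9 and 81.5 CPM in DTA- and at 76.4 and 76.1 CPM in DTA+ (log2 fold 0.14, SE 0.179, edgeR adjusted p = 0.747). *Smo* was at 101 and 95.7 CPM against 118 and 112 CPM; its groups did not overlap, but it was not called (0.23, SE 0.109, adjusted p = 0.38). In mesenchyme-like cells, 18 clusters summed, again none of 8 members was called, against 1.28% of 15207 genes. *Hhip* lay at 19.1 and 21.0 CPM there in DTA- and at 15.5 and 26.5 CPM in DTA+, with the DTA+ samples on either side of the DTA- samples. Proliferation markers (6 of 6 detected) summed there to 444 and 668 CPM in DTA- and to 439 and 340.1 CPM in DTA+, and their part in these values was not tested. In sums over many cell types, a shift in which cells were present and a shift in level per cell cannot be told apart.

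In epithelium-like cells (109, 94, 152 and 93 cells), 4 members passed the filter on low counts and none was called, against 0% of 4923 genes; 227 genes had an unadjusted p under 0.05. DESeq2 called 0 genes as well, with 48 at an unadjusted p under 0.05. *Shh* had 12 and 0 UMIs in DTA- and 8 and 2 in DTA+ and was not tested. *Smo* was at 29.3 and 42.2 CPM in DTA- and 85.0 and 96.8 CPM in DTA+, without overlap (log2 fold 1.34, SE 0.343, edgeR adjusted p = 0.967). *Ptch1* was at 47.9 and 51.3 CPM against 115 and 60.5 CPM (0.86, adjusted p = 0.967), and *Gas1* at 218 and 253 CPM against 136 and 154 CPM (-0.70, adjusted p = 0.967).

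Other markers varied between these epithelial samples, and some moved with the genotype. Proliferation markers (6 of 6 detected) summed to 702 and 971 CPM in DTA- and to 520.4 and 599 CPM in DTA+, those of the distal glans (7 of 7) to 120 and 106 CPM and to 138 and 173 CPM, and those of the corpus cavernosum (6 of 8) to 98.5 and 97.6 CPM and to 119 and 197 CPM. The 10 urethral markers, all detected, summed to 459.9 and 2332 CPM in DTA- and to 611 and 2006 CPM in DTA+, so that they differed more within a genotype than between the genotypes. The 9 mesenchyme markers summed to 1422 and 2759 CPM and to 1612 and 960.2 CPM, and the 6 red blood cell markers to between 2586 CPM and, in DTA- replicate 1, 32535 CPM. Their part in the levels of the members was not tested. Without DTA- replicate 2, with the lone DTA- sample assumed to vary like the others, *Smo* was called (1.59, edgeR adjusted p = 0.0386), against 0.809% of all genes in that fit.

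In periurethra-like cells (572, 547, 519 and 866 cells), *Ptch1* and *Hhip* were below both DTA- samples in 1 of the 2 DTA+ samples only. None of 8 members was called, against 3.36% of 10980 genes. *Ptch1* was at 227 and 278 CPM in DTA- and at 135 and 286 CPM in DTA+ (log2 fold -0.25, SE 0.284, edgeR adjusted p = 0.734). DTA+ replicate 1 was below both DTA- samples and DTA+ replicate 2 above both. *Hhip* was at 86.4 and 96.3 CPM against 45.3 and 90.8 CPM (-0.39, SE 0.266, adjusted p = 0.536), again lowest in DTA+ replicate 1, with DTA+ replicate 2 between the DTA- samples.

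In the same periurethra-like cells, *Gli1* was at 26.7 and 30.7 CPM in DTA- and 13.2 and 25.8 CPM in DTA+, without overlap (-0.49, SE 0.292, edgeR adjusted p = 0.464). Without DTA+ replicate 2, with the lone DTA+ sample assumed to vary like the others, 3 members were called: *Ptch1* at -0.91 (adjusted p = 0.000565), *Hhip* at -1.01 (0.00404) and *Gli1* at -1.12 (0.0301), against 7.66% of all genes in that fit. The other members were not called in either fit, with *Gli2* at 13.5 and 9.30 CPM against 10.0 and 19.7 CPM (0.42), *Gli3* at 29.3 and 52.5 CPM against 55.2 and 41.6 CPM (0.24), *Gas1* at 480.1 and 460.3 CPM against 547 and 495 CPM, *Smo* at 137 and 129 CPM against 152 and 125 CPM, and *Boc* at 31.1 and 23.7 CPM against 25.8 and 29.2 CPM. Markers of the general prepuce (6 of 6 detected) summed to 604 and 759 CPM in these DTA- cells and to 2060.4 and 1148 CPM in DTA+. Several further lists did not overlap either. Among them, subdermal prepuce markers summed to 568 and 527 CPM against 1240 and 965 CPM, and distal glans markers to 511 and 474 CPM against 609 and 726 CPM. Corpus cavernosum markers summed to 58.6 and 59.6 CPM against 40.2 and 43.9 CPM, and red blood cell markers to 4001 and 3078 CPM against 2817 and 630 CPM. Their part in the result was not tested.

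The share of cells with a UMI of the receptor was also lowest in DTA+ replicate 1. A *Ptch1* UMI was found in 54.5% and 50.6% of periurethra-like cells in DTA- and in 31.2% and 51.7% in DTA+ (exact two-sided permutation p = 0.667, n = 2 against 2). After thinning to 1000 UMIs per cell, the shares were 19.6% and 20.5% against 13.5% and 21.1%. In macrophage-like cells, which should lack the gene, the share over all libraries was 4.04% at a median of 5314 UMIs, against 47.9% at 3918.5 UMIs in the periurethra-like cells. The smallest p that 2 against 2 samples allow is 0.333, so no share could pass.

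At clustering resolution 1.2, the periurethra-like cells fell into 2 clusters, a split added after the values were seen. At that resolution only 1 of them, here called the *Sall3* cells, kept the periurethra-like name, and the other was unnamed. The *Sall3* cells (269, 266, 317 and 435) had *Tac1*, *Apela* and *Tnc* among their leading genes, and the *Epha3*/*Tcf21* cells (298, 276, 198 and 429) had *Mup17*, *Npnt* and *Klf2*. The *Epha3*/*Tcf21* cells made up 52.1% and 50.5% of the periurethra-like cells in DTA- and 38.2% and 49.5% in DTA+ (exact two-sided permutation p = 0.333, n = 2 against 2). DTA+ replicate 1, the sample with the low sums of *Ptch1*, *Hhip* and *Gli1*, thus held the fewest of them.

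The targets were higher in the *Epha3*/*Tcf21* cells in every sample. *Hhip* stood at 155 and 170.4 CPM there in DTA- against 11.6 and 15.1 CPM in the *Sall3* cells of the same samples. For *Ptch1* the levels were 319 and 437 CPM against 126 and 104 CPM, and for *Gli1* 39.2 and 43.5 CPM against 13.9 and 16.1 CPM. In DTA+, *Hhip* stood at 62.0 and 145 CPM in the *Epha3*/*Tcf21* cells against 37.7 and 40.1 CPM in the *Sall3* cells, so that the gap was smaller in both ablated samples.

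*Hhip* rose in the *Sall3* cells of DTA+ penises. It had 15 and 15 UMIs in DTA- and 45 and 66 in DTA+, or 11.6 and 15.1 CPM against 37.7 and 40.1 CPM, with no overlap (log2 fold 1.56, SE 0.292, edgeR adjusted p = 0.0184). It was the 1 member called of 8 tested, against 2.74% of 9402 genes. The call was lost with DESeq2 (adjusted p = 0.184), after thinning to 1000 UMIs (2.46, adjusted p = 0.0631) and without DTA- replicate 1 or 2 (adjusted p = 0.269 and 0.11). A *Hhip* UMI was found in 4.83% and 4.89% of these cells in DTA- and in 10.4% and 12.0% in DTA+, and after thinning in 0.372% and 0.752% against 4.73% and 3.45%. In macrophage-like cells, which should lack the gene, the share was 0.897% as deposited, at a median of 5314 UMIs against 3872 UMIs in the *Sall3* cells.

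In the same cells, *Ptch1* (126 and 104 CPM against 82.1 and 180.4 CPM, 0.20, adjusted p = 0.837) and *Gli1* (13.9 and 16.1 CPM against 8.38 and 15.8 CPM, -0.25, adjusted p = 0.847) overlapped and were not called by edgeR. *Boc*, by contrast, was at 30.9 and 24.1 CPM against 15.1 and 20.05 CPM, not overlapping and not called (-0.64, adjusted p = 0.376). Several marker lists moved with the genotype here. Those of the distal glans, where *Hhip* is high, summed to 614 and 506 CPM against 704 and 978 CPM (7 of 7 detected). General prepuce markers (6 of 6) summed to 294 and 559 CPM against 2237 and 795 CPM, and subdermal prepuce markers (6 of 6) to 510.5 and 509.6 CPM against 1245 and 795 CPM. Proliferation markers summed to 32.6 and 28.3 CPM against 44.9 and 35.8 CPM. Pericyte markers summed to 44.0 and 43.8 CPM against 73.1 and 47.3 CPM, and glia markers to 4.55 and 4.87 CPM against 6.65 and 9.10 CPM. Their part in the result was not tested.

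In the *Epha3*/*Tcf21* cells the direction for *Hhip* was the opposite, though not called: 155 and 170.4 CPM in DTA- and 62.0 and 145 CPM in DTA+, without overlap (-0.55, SE 0.243, edgeR adjusted p = 0.282). None of 8 members was called, against 4.15% of 9354 genes. Without DTA+ replicate 2, *Hhip* (-1.39, adjusted p = 5.73e-05) and *Ptch1* (-0.68, adjusted p = 0.0405) were called, against 4.6% of all genes in that fit. *Boc* was at 30.7 and 24.0 CPM against 46.9 and 39.3 CPM (0.61, adjusted p = 0.308). Red blood cell markers (6 of 6 detected) summed to 5519 and 4065 CPM in DTA- and to 567 and 493 CPM in DTA+ in these cells, and over all mesenchyme-like cells to 3054 and 2057 CPM and to 1795 and 753 CPM. General prepuce markers (6 of 6) summed here to 893 and 944 CPM in DTA- and to 1754 and 1512 CPM in DTA+, those of the subdermal prepuce (6 of 6) to 621 and 543 CPM and to 1233 and 1141 CPM, and those of the endothelium (7 of 7) to 19.3 and 8.69 CPM and to 49.0 and 35.7 CPM. Their part in the result was not tested.

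The difference between the 2 responses was itself tested, with the sample as a block. For *Hhip*, the log2 fold in the *Sall3* cells exceeded that in the *Epha3*/*Tcf21* cells by 2.16 (SE 0.348, edgeR adjusted p = 9.11e-05). It was the 1 member called, against 1.86% of 10103 genes. It was also called without a filter on low counts, with pathway genes kept in the clustering and at resolution 1.2, the clustering that made the split. With 1 library left out at a time, the difference ranged from 1.77 to 2.91. DESeq2 and thinning, under which the *Hhip* call in the *Sall3* cells was lost, were not run for this difference. *Boc* differed by -1.23 (SE 0.389, adjusted p = 0.124) and *Ptch1* by 0.39 (SE 0.216, adjusted p = 0.645), neither called. The same test of all periurethra-like against all other mesenchyme-like cells called none of the members, against 1.53% of 14534 genes, with *Hhip* at -0.74 (SE 0.182, adjusted p = 0.0659). Without a filter on low counts it called *Hhip* (-0.76, edgeR adjusted p = 0.00161) and *Ptch1* (-0.57, edgeR adjusted p = 0.00314), against 560 of 22937 genes. With 1 library left out at a time, the difference ranged from -1.03 to -0.56 for *Hhip*. It ranged from -1.40 to 0.14 for *Ptch1* and from -1.16 to 0.16 for *Gli1*, so these 2 changed sign. All 3 were lowest without DTA+ replicate 2. The *Hhip* value rested on which cells were named periurethra-like: at resolution 1.2, where only the *Sall3* cells were, it was 1.58 (edgeR adjusted p = 0.025), against 235 of 14837 genes called.

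**Figure D3:**
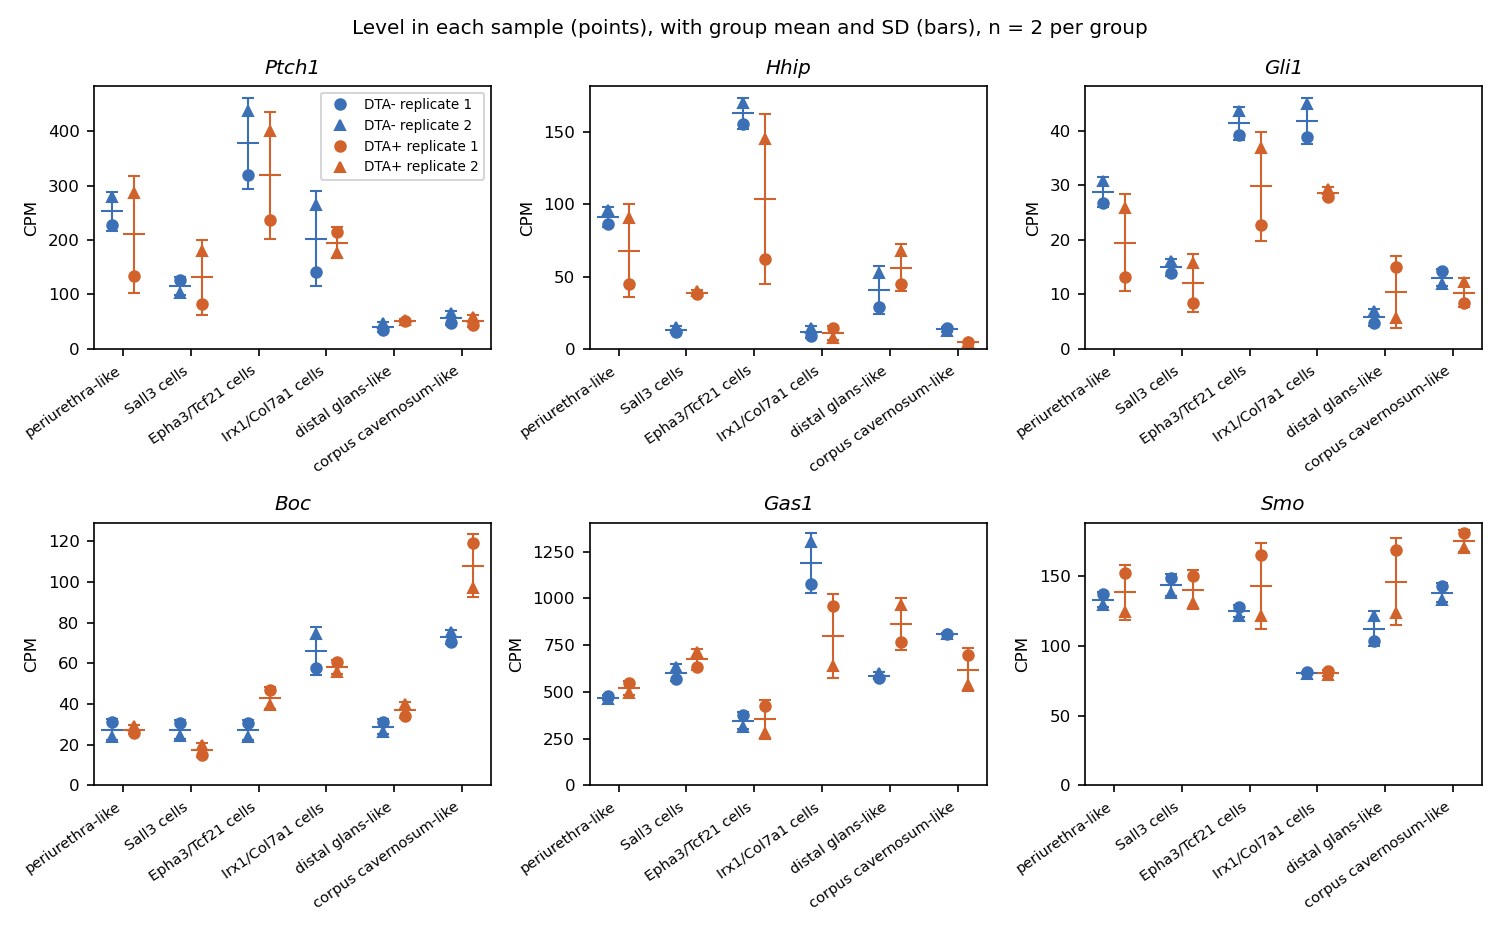
CPM of 6 members (panels) in 6 cell populations, with 1 point per sample (blue DTA-, orange DTA+; circle replicate 1, triangle replicate 2) and the group mean with SD, n = 2. *Hhip* lies at 11.6 to 15.1 CPM in DTA- and at 37.7 to 40.1 CPM in DTA+ in the *Sall3* cells, and DTA+ replicate 1 has the lowest *Ptch1*, *Hhip* and *Gli1* of the periurethra-like cells.

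The *Irx1*/*Col7a1* cluster (402, 753, 853 and 346 cells), where *Gli1* was highest, was added to the tests after the values were seen. It was picked as the unnamed mesenchymal cluster with the highest *Ptch1* level. None of 8 members was called there, against 0.654% of 10696 genes. *Gli1* was at 38.8 and 44.8 CPM in DTA- and at 27.9 and 29.3 CPM in DTA+, without overlap (-0.56, SE 0.218, edgeR adjusted p = 0.532). *Gas1* was at 1077 and 1304 CPM against 960.1 and 640.3 CPM (-0.57, SE 0.179, edgeR adjusted p = 0.298). It was called without a filter on low counts (-0.56, edgeR adjusted p = 0.0134), against 1.57% of all genes. With 1 library left out at a time, its fold ranged from -0.89, without DTA+ replicate 1, to -0.31. *Gli2* was at 33.0 and 29.7 CPM against 25.2 and 20.3 CPM. *Ptch1* (141 and 264 CPM against 215 and 175 CPM) and *Smo* (81.0 and 79.9 CPM against 81.9 and 79.0 CPM) overlapped. Subdermal prepuce markers (6 of 6 detected) summed to 2555 and 2279 CPM in these DTA- cells and to 3147 and 2825 CPM in DTA+, and those of smooth muscle (6 of 6) to 301 and 234 CPM and to 129 and 193 CPM. Their part in these values was not tested.

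In distal glans-like cells (1101, 833, 969 and 1770 cells), *Gas1* rose in DTA+. It was at 575 and 599 CPM in DTA- and at 765 and 963 CPM in DTA+, without overlap (log2 fold 0.56, SE 0.114, edgeR adjusted p = 0.0102), and was the 1 member called of 8, against 4.96% of 11633 genes. Without DTA+ replicate 2 the call was lost (0.38, adjusted p = 0.119). The folds of the other 7 members were above 0 too, at 0.26 to 0.77, beside a median of 0.0045 over all genes. Of these, *Gli3* was at 63.3 and 63.0 CPM against 75.6 and 75.5 CPM (0.26, adjusted p = 0.373), and *Hhip*, with 29.1 and 52.3 CPM against 44.8 and 67.6 CPM, overlapped (0.53, adjusted p = 0.24). Other single libraries decided calls here as well: without DTA- replicate 2, *Hhip* (0.97, adjusted p = 0.000117), *Ptch1* (0.60, adjusted p = 0.0327) and *Smo* (0.47, adjusted p = 0.0321) were called (10.6% of all genes were), without DTA+ replicate 1, *Hhip* (0.77, adjusted p = 0.0397; 3.43% of all genes), and without DTA+ replicate 2, *Gli1* (1.43, adjusted p = 0.00757; 4.84% of all genes). The distal glans-like cells pooled the clusters led by *Msx2* (506, 437, 603 and 951 cells) and by *Tac1* (595, 396, 366 and 819 cells). The part of this cell mix in the pooled values was not tested. Proliferation markers (6 of 6 detected) summed to 132 and 131 CPM in DTA- and to 55.8 and 78.3 CPM in DTA+, distal glans markers (7 of 7) to 1683 and 1379 CPM and to 1788 and 2293 CPM, and red blood cell markers (6 of 6) to 2175 and 1337 CPM and to 908 and 442 CPM. Their part in the result was not tested.

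Corpus cavernosum-like cells (522, 601, 796 and 730 cells) had 2 members called of 8, in opposite directions, against 7.62% of 11068 genes. *Hhip* fell, from 38 and 31 UMIs in DTA- to 14 and 14 in DTA+, or from 14.6 and 12.3 CPM to 4.90 and 5.04 CPM (log2 fold -1.43, SE 0.335, edgeR adjusted p = 0.0142). The call was lost with DESeq2 (adjusted p = 0.2), at resolution 1.2 (-0.82), with pathway genes kept in the clustering (-0.87) and without DTA+ replicate 1 or 2 (adjusted p = 0.109 and 0.0803), and after thinning *Hhip* was too low to test. *Boc*, a co-receptor, rose from 70.4 and 75.5 CPM to 119 and 97.1 CPM (0.57, SE 0.168, adjusted p = 0.0474) and lost its call with DESeq2 (adjusted p = 0.153), without a filter on low counts (0.124), after thinning (0.0786), at resolution 1.2 (0.0509), with no upper UMI limit (0.0643) and without DTA+ replicate 1 (0.42, 0.587) or 2 (0.71, 0.126).

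The other members of the corpus cavernosum-like cells were not called. *Smo* was at 143 and 133 CPM against 181 and 169.8 CPM (0.35, edgeR adjusted p = 0.156), and *Gas1* at 810.1 and 812 CPM against 699 and 537 CPM (-0.39, adjusted p = 0.0953), both without overlap. The *Gas1* fold was -0.38 without DTA- replicate 1 and -0.39 without DTA- replicate 2. Over all fits that left out 1 library, it ranged from -0.59 to -0.21. *Smo* was called with no upper UMI limit (0.46, edgeR adjusted p = 0.0436), where 11.1% of all genes were called. *Ptch1* (47.3 and 65.2 CPM against 43.4 and 58.6 CPM) and *Gli1* (14.2 and 11.9 CPM against 8.39 and 12.2 CPM) overlapped. Markers of the *Nr5a1* lineage (8 of 8 detected) summed to 127 and 174 CPM in DTA- and to 115 and 78.9 CPM in DTA+, and those of smooth muscle (6 of 6) to 75.7 and 70.4 CPM and to 52.9 and 35.9 CPM. Their part in these differences was not tested.

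Subdermal prepuce-like cells (284, 830, 254 and 327 cells) had 7 members tested and none called, against 4.5% of 9705 genes. At resolution 1.2 the cells of this name numbered 262 and 828 in DTA- and 29 and 15 in DTA+, and with pathway genes kept in the clustering 266 and 905 against 28 and 10, so that most DTA+ cells fell in other clusters there and no test was run. Differences within this class may thus compare different cells. *Gli1* was at 12.2 and 14.1 CPM in DTA- and 6.34 and 7.16 CPM in DTA+, from 18, 54, 7 and 10 UMIs, without overlap (-0.97, SE 0.378, edgeR adjusted p = 0.221). *Boc* was at 14.9 and 25.5 CPM against 35.3 and 28.6 CPM (0.57, edgeR adjusted p = 0.397). With no upper UMI limit it was called (1.13, edgeR adjusted p = 0.00967), against 4.42% of all genes. In proliferating cells (502, 782, 438 and 397 cells), none of 8 members was called, against 0.392% of 10723 genes. *Ptch1* was at 55.8 and 93.2 CPM there against 127 and 99.3 CPM (0.58, SE 0.225, edgeR adjusted p = 0.459). With 1 library left out at a time, its fold ranged from 0.28 to 1.02, and was highest without DTA- replicate 2. This population pooled the clusters led by *Top2a* (350, 458, 152 and 235 cells) and by *Hist1h1b* (152, 324, 286 and 162 cells). In the former, *Ptch1* was at 38.9 and 59.5 CPM against 38.0 and 91.0 CPM. In the latter it was at 85.3 and 135 CPM against 166 and 115 CPM, so the genotypes overlapped in each. The part of the cell mix in the pooled values was not tested.

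**Figure D4:**
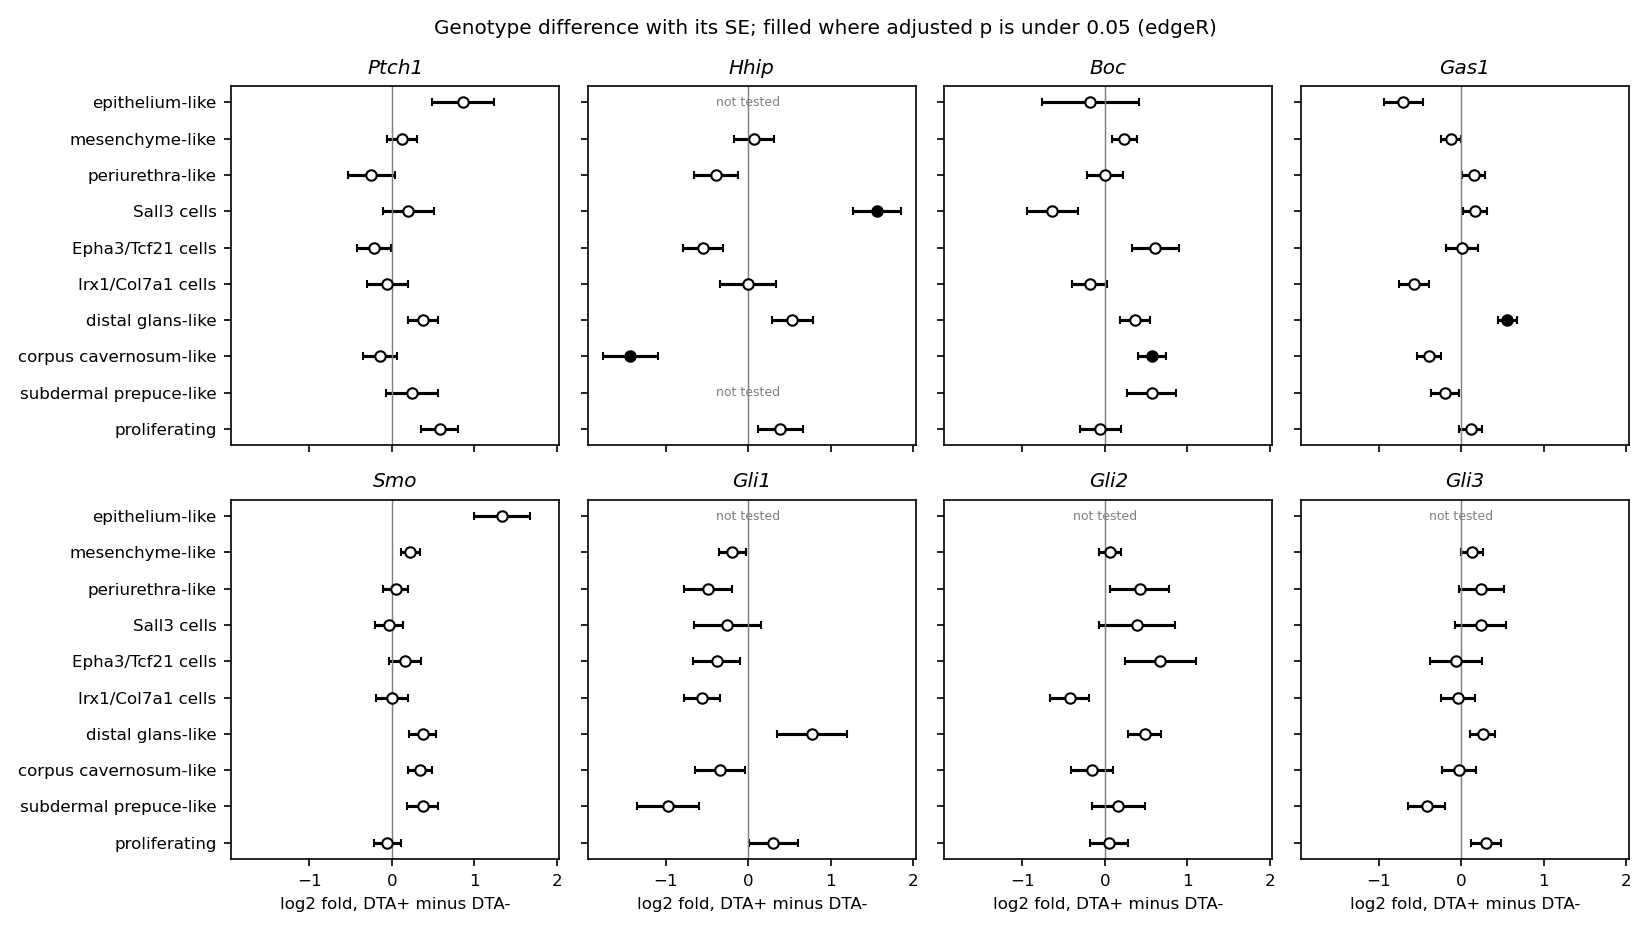
Log2 fold of DTA+ over DTA- with its SE for the 8 members that could be tested (panels) in 10 cell populations (rows); filled points had an adjusted p under 0.05. The filled points are *Hhip* in the *Sall3* cells (1.56) and, below 0, in the corpus cavernosum-like cells (-1.43), *Boc* in the latter (0.57) and *Gas1* in the distal glans-like cells (0.56).

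The 33 other pathway genes gave few calls. In all cells, mesenchyme-like cells and periurethra-like cells, none of the 30, 30 and 28 tested was called, with median log2 folds of 0.06, 0.04 and 0.16, beside medians of -0.003, -0.0003 and 0.0004 over all genes. None was called among 8 in epithelium-like cells, 25 in the *Irx1*/*Col7a1* cluster, 25 in distal glans-like cells and 24 in proliferating cells. In periurethra-like cells, 16 of the 33 were at 20 CPM or more: the co-receptor *Cdon*, the glypicans *Gpc3*, *Gpc4* and *Gpc6*, the cilium genes *Kif3a* and *Ift88*, the Gli regulators *Sufu*, *Spop* and *Prkaca*, and the targets *Foxf1*, *Foxf2*, *Bmp4*, *Ccnd1*, *Ccnd2*, *Bcl2* and *Osr1*. *Foxf1* and *Foxf2* are also among the markers that named the cluster.

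Within the split periurethra, *Sall3* cells had 2 of 24 called, against 2.74% of all genes. *Scube2*, which helps release ligand from producing cells, fell from 11 and 12 UMIs in DTA- to 1 and 1 in DTA+ (-3.67, SE 0.736, edgeR adjusted p = 0.0265). It is also 1 of the 8 listed markers of the *Nr5a1* lineage. Together these 8 summed to 88.7 and 132 CPM in DTA- and to 173 and 56.4 CPM in DTA+ in these cells, so the genotypes overlapped. Without DTA+ replicate 1 or 2, *Scube2* was not called. *Bcl2*, an anti-apoptotic target, rose from 51.7 and 74.4 CPM to 121 and 136 CPM (1.05, SE 0.217, adjusted p = 0.0298), and was not called without DTA- replicate 1 (0.79, 0.393) or 2 (1.32, 0.11). In the *Epha3*/*Tcf21* cells 1 of 24 was called, a share near the 4.15% of all genes: the glypican *Gpc6*, from 59.2 and 59.5 CPM to 90.7 and 126 CPM (0.90, SE 0.216, adjusted p = 0.0151), not called without DTA- replicate 2 (adjusted p = 0.189) or DTA+ replicate 2 (0.61, 0.283).

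The corpus cavernosum and the prepuce held the remaining calls. In corpus cavernosum-like cells, 2 of 25 fell, a share near the 7.62% of all genes called: the co-receptor *Cdon*, from 67.7 and 87.4 CPM to 46.9 and 34.9 CPM (-0.92, SE 0.199, edgeR adjusted p = 0.00894), and the cell-cycle target *Ccnd1*, from 23.1 and 21.1 CPM to 12.9 and 10.1 CPM (-0.94, adjusted p = 0.0387). Without DTA+ replicate 2, neither was called (*Cdon* -0.72, adjusted p = 0.172, and *Ccnd1* -0.77, 0.329); *Ccnd1* also lost its call without DTA- replicate 1 (0.053) or DTA+ replicate 1 (0.108), and stood at 0.02 after thinning to 1000 UMIs. In subdermal prepuce-like cells 3 of 22 rose and 1 fell, against 4.5% of all genes called. The cells of the genotypes fell largely in different clusters at resolution 1.2. *Cdon* rose there from 37.9 and 39.6 CPM to 78.8 and 74.5 CPM (0.98, SE 0.2, adjusted p = 0.014), the reverse of its direction in the corpus cavernosum; the difference between these responses was not tested. *Scube3* (1.73, adjusted p = 0.00928) and *Gpc6* (1.34, adjusted p = 0.0203) also rose. Without DTA+ replicate 2, *Cdon* (1.02, adjusted p = 0.0649) and *Gpc6* (0.89, 0.21) were not called, nor was *Cdon* without DTA+ replicate 1 (0.94, 0.066). *Bmp4*, a secreted signal and target, fell from 93.5 and 97.6 CPM to 29.9 and 22.2 CPM (-1.89, SE 0.228, adjusted p = 0.000443). In these cells the *Nr5a1* lineage markers (8 of 8 detected) summed to 388 and 437 CPM in DTA- and to 163 and 125 CPM in DTA+. Over all mesenchyme-like cells they summed to 182 and 278 CPM and to 234 and 166 CPM, so the genotypes overlapped there. In proliferating cells they were higher in DTA+, at 134 and 218 CPM against 295 and 226 CPM. The part of these markers in the differences above was not tested.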

How the data were processed

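Single-cell suspensions of 2 DTA- and 2 DTA+ E16.5 penises were made into 10x 3' libraries by the authors. The deposited matrices hold UMI counts per gene and cell barcode, made by the authors with Cell Ranger 4.0.0 (per the labels' processing notes) against mm10 with added eGFP and *tdTomato* sequences. UMIs were counted once per molecule, without normalization, and the libraries were sequenced together.

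Cells were kept if they held over 1000 but under 7500 UMIs and if mitochondrial genes made up no more than 25% of them, the Hba genes 25% and the Hbb genes 50%, limits close to those of the study. Seurat 5.3.0 clustered them on 30 principal components at resolution 0.8. Clusters were named from marker lists (at least 3 enriched markers). Doublets were not removed: Scrublet called between 0 and 3 cells per library, so leaving out the highest scores was an alternative. For each population with 20 or more cells in every sample, its cells' counts were added up within a sample and tested with edgeR 4.0.16 (TMM, filterByExpr, genotype only, 2 residual degrees of freedom). Shares of cells have Wilson intervals and exact two-sided permutation tests. The named genes are the members in every comparison, and other pathway genes where called or at 20 CPM or more in the population described. The members and lists were chosen with earlier results of these data known. The test was checked on simulated data. In all, 17 settings were run, DESeq2 1.42.0 among them. General prepuce-like cells were not tested, since 1 library held 3 of them. Some genes are not reported here. Sequences are from RefSeq.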

Additional observations from a re-analysis of the deposited data

Results flagged for a closer look

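The genotype difference of 2 pathway genes was not the same in both parts of the periurethra-like cells, against 1.86% of 10103 genes called. The difference itself was tested, with the sample as a block. For *Hhip*, the log2 fold of DTA+ over DTA- in the *Sall3* cells exceeded that in the *Epha3*/*Tcf21* cells by 2.16 (SE 0.348, edgeR adjusted p = 9.11e-05). The DTA+ samples were both above the DTA- samples in the *Sall3* cells and both below them in the *Epha3*/*Tcf21* cells. For *Gpc3*, a glypican that binds Hedgehog ligand, the folds differed by 0.82 (SE 0.184, edgeR adjusted p = 0.00723). *Gpc3* was at 259 and 253 CPM in DTA- and at 328 and 435 CPM in DTA+ in the *Sall3* cells (0.58, adjusted p = 0.137), and at 311 and 414 CPM against 289 and 314 CPM in the *Epha3*/*Tcf21* cells (-0.26, adjusted p = 0.565), neither called. The *Gpc3* difference was not called without DTA- replicate 2 (0.59, adjusted p = 0.526) or without DTA+ replicate 2 (0.68, adjusted p = 0.0588). The split into these cells was made after the values were seen, and the part that general and subdermal prepuce markers had in either difference was not tested.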

How the results depend on the processing

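Of 1349 alternative values of the 99 gene results, 1196 kept their direction and their side of the threshold, 105 changed sign while not called, 18 lost and 27 gained a call, and 3 reversed. No member was called in all cells or in mesenchyme-like cells under any alternative run. The reversed values were those of *Hhip* where the *Sall3* cells alone were named periurethra-like: 1.55 in periurethra-like cells at resolution 1.2 and 1.55 with pathway genes kept in the clustering (against -0.39), and 1.58 for the difference from other mesenchyme at resolution 1.2 (against -0.74). The other named mesenchymal populations had 3 members called, 1 with DESeq2, 1 after thinning (where *Hhip* in corpus cavernosum-like cells was not tested) and 1 at resolution 1.2. With DESeq2, 5.66% of all genes were called in distal glans-like, 3.51% in corpus cavernosum-like, 1.96% in subdermal prepuce-like and 0.298% in proliferating cells. After thinning the shares were 1.82%, 4.52%, 3.48% and 0.583%. At resolution 1.2, without a test of subdermal prepuce-like cells, they were 3.08%, 8.36% and 0.339%. Periurethra-like cells had 0 called, 1 at resolution 1.2 and 1 with pathway genes kept, against 3.36%, 2.81% and 2.75% of all genes. The *Sall3* cells had 1 called, 0 with DESeq2 and 0 after thinning, against 2.74%, 2.13% and 2.97% of all genes. Without a filter on low counts, the *Irx1*/*Col7a1* cluster had 1 called in place of 0, against 1.57% of all genes. The difference in response of periurethra-like cells then had 2 in place of 0, against 560 of 22937 genes. At resolution 1.2 it had 1, against 235 of 14837 genes. Why these calls changed was not tested.

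Leaving out 1 library at a time, with the lone sample of a genotype assumed to vary like the others, gave 0 to 1 members called in epithelium-like cells, 0 to 3 in periurethra-like cells, 1 to 8 in the other named mesenchymal populations (8 without DTA- replicate 2, where 18.1% of all genes were called in corpus cavernosum-like, 10.6% in distal glans-like and 2.34% in proliferating cells, and 1 without DTA+ replicate 2), 0 to 1 in the *Irx1*/*Col7a1* cluster, 0 to 1 in the *Sall3* cells, 0 to 2 in the *Epha3*/*Tcf21* cells and 0 to 3 for the difference in response. In these fits the share of all genes called also changed with the library left out. The counts of members called are therefore descriptions, and do not show a change particular to the pathway. The difference between genotypes in the share of cells with a UMI was followed in the same way, in percentage points. It ranged from -3.11 to 2.39 for *Shh* in epithelium-like cells. In periurethra-like cells it ranged from -21.4 to -0.86 for *Ptch1*, -9.69 to -0.58 for *Hhip* and -6.25 to -1.83 for *Gli1*.

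The labels state nothing that samples with the same number share. Correlations of their deviations from the group mean ran from -0.455 in all cells to 0.0534 in epithelium-like cells. A value below 0 means that samples of different number in the genotypes deviated alike. In all cells, mesenchyme markers summed to 9840 and 14625 CPM in DTA- and to 13282 and 9790 CPM in DTA+. What lies behind this was not tested. The replicate block moved the genes called from 78 to 335 in all cells, from 194 to 301 in mesenchyme-like cells, from 369 to 756 in periurethra-like cells and from 843 to 326 in corpus cavernosum-like cells. Among members it ended 1 call, *Boc* in corpus cavernosum-like cells (0.56, edgeR adjusted p = 0.167), and added none. With the numbers crossed, an added alternative, 1668 genes were called in all cells and 1686 in mesenchyme-like cells. Members called came to 5 in the other named mesenchymal populations. There, 15.3% (corpus cavernosum-like), 9.97% (distal glans-like), 6.14% (subdermal prepuce-like) and 3.89% (proliferating) of all genes were called. In the *Irx1*/*Col7a1* cluster 1 member was called, against 3.84% of all genes, and in the *Epha3*/*Tcf21* cells 1, against 7.0%. DESeq2 called 544 genes in all cells, 630.0 in mesenchyme-like cells, 282 in distal glans-like cells and 366 in corpus cavernosum-like cells, against 78, 194, 577 and 843.

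Depth limits *Shh* and the epithelium. Most *Shh* UMIs lay in cells above 7500 UMIs, and 93 to 152 epithelium-like cells per library left 5 members below the filter on low counts there.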
